A study of Homo sapiens with 8 samples.

Results

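The HOXB cluster comprises 10 protein-coding genes, HOXB1 to HOXB9 and HOXB13, on human chromosome 17. Its members here were the deposited regions that the authors named after 1 of these genes, together with every region overlapping chr17:48528526-48728750 (hg38), the 200 kb stretch that ends at the outer ends of HOXB1 and HOXB13. That rule took 168 of the 327994 regions in 6 lists, of which 157 came from lists of captured DNA and 11 from control lists. By position alone 155 regions qualified and by the authors' names 111, with 98 qualifying both ways.

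The study asked which stretches of genomic DNA bind a biotinylated RNA oligo. RNA-free DNA of H1 cells, an established line of human embryonic stem cells, was sonicated to fragments averaging 200 to 300 bp. It was incubated for 1 h at 37 °C with 20 pmol of oligo, in 50 mM KCl and 5 mM MgCl2. The DNA held on streptavidin beads was released with RNases and sequenced. The treated groups received MEG3 TFR1, MEG3 TFR2 or GATA6-AS TFR1, 3 oligos named after the long noncoding RNAs MEG3 and GATA6-AS, and the control group was handled alike with no oligo. Each of the 4 groups had 2 libraries from independent experiments. Since the DNA carried neither chromatin nor RNA of the cell, the lists describe capture of bare DNA from 1 cell line. They say nothing of HOXB transcription, and the cell type could not be checked against markers.

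Each oligo has a captured list, where DNA was more abundant with the oligo, and a control list, where it was more abundant with no oligo. The single value given per region is the authors' log2 ratio of oligo over no oligo. No library has a value of its own, so neither the spread between libraries nor the sequencing depth is known, and no difference below has a test. All 3 comparisons rest on the same no oligo libraries, and their values are therefore only set side by side.

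HOX genes encode homeodomain transcription factors that give cells their position along the head-to-tail axis of the embryo. They lie in clusters, and within a cluster the genes at one end are switched on earlier and nearer the head than those at the other. In undifferentiated embryonic stem cells the clusters are largely silent under Polycomb repression, and retinoic acid switches on the HOXB1 end first. A triplex, the structure in which an RNA strand lies in the major groove of duplex DNA, generally needs a run of purines on one DNA strand and so of pyrimidines on the other.

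Promoter sequences show what kind of DNA lay in and beside the captured regions. RefSeq promoters of GRCh38.p14, each 250 bases before and 50 after a transcription start, were at hand for 9 genes in the cluster (12 promoters), HOXB1 being the only member among them. The 5 printed here are that of HOXB1, that of HOXB-AS1 with the longest purine run, and those of HOXB-AS3, LINC02086 and PRAC2, each of which overlapped captured regions of more than 1 oligo. Capitals mark the longest run of only purines or only pyrimidines.
HOXB1 (chr17:48530962-48531261, minus strand): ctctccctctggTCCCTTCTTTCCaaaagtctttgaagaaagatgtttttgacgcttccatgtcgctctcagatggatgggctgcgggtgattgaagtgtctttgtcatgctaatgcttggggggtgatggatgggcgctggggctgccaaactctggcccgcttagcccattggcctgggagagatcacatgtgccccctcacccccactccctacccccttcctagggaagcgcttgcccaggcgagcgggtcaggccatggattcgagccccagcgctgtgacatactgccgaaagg
HOXB-AS1 (chr17:48544101-48544400, plus strand): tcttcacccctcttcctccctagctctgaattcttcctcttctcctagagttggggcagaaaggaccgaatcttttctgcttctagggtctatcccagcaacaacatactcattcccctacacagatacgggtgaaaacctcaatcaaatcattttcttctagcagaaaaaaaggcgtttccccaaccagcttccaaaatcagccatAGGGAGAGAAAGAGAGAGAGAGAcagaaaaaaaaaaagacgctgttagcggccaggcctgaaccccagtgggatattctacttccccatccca
HOXB-AS3 (chr17:48595708-48596007, plus strand): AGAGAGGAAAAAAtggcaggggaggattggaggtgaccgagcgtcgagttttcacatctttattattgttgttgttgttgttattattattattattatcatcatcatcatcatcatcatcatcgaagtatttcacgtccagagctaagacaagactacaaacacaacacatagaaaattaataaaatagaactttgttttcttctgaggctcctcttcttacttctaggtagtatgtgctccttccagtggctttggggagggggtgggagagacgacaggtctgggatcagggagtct
LINC02086 (chr17:48642377-48642676, plus strand): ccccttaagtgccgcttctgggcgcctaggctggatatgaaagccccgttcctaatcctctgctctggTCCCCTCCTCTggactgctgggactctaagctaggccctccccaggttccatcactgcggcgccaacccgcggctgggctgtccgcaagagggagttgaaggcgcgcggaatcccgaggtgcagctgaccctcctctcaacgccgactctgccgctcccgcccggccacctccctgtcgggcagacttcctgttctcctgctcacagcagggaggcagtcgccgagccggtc
PRAC2 (chr17:48722935-48723234, plus strand): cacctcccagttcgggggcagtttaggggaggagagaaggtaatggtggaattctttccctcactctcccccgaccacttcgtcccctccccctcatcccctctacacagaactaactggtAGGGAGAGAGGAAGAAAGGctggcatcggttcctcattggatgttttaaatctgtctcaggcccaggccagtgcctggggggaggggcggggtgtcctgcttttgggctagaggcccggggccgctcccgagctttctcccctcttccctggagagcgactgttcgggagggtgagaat

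The whole HOXB1 promoter lay inside a GATA6-AS TFR1 region with a log2 ratio of 1.67. In the HOXB-AS1 promoter the last 150 bases, which hold the run of 23 purines starting at base 208, lay in a MEG3 TFR1 region with a log2 ratio of 1.53. The HOXB-AS3 promoter lay wholly inside a GATA6-AS TFR1 region (log2 ratio 1.75), while its first 43 bases, which include the marked run, lay in a MEG3 TFR1 region (1.63). The LINC02086 promoter lay wholly inside regions of MEG3 TFR1 (1.26) and of GATA6-AS TFR1 (1.06). The PRAC2 promoter, with a run of 19 purines, lay wholly inside a GATA6-AS TFR1 region (1.07), and its first 266 bases in a MEG3 TFR1 region (1.07). The longest runs of these promoters thus went from 11 pyrimidines at LINC02086 to 23 purines at HOXB-AS1, beside a median of 11 bases over all promoters. The printed promoters were picked, HOXB-AS1 for its run and most others for their captured regions. They therefore give no comparison with all promoters or with promoters that were not captured.

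The 12 promoters of the cluster belong to 9 genes, with HOXB1 the only member, and some of them overlap the same captured region. A MEG3 TFR1 region overlapped 5 of the 12, against 6.28% of 35116 promoters genome-wide. GATA6-AS TFR1 regions overlapped 9 of the 12, against 14.0% genome-wide, and MEG3 TFR2 regions overlapped 0 of the 12, against 3.03%. Runs of at least 10 purines or pyrimidines stood in 12 of 12 promoters of the cluster and in 72.0% of all promoters. Searched on both strands, GAGAGA occurred in 4 of the 12 against 22.4% of all promoters, GGAGGA in 6 against 36.6%, and GGGAGG in 9 against 49.3%. The dinucleotide CG was less frequent in these promoters, with a median of 7.5 per promoter, than over all promoters, with a median of 14. The promoters of HOXB2 to HOXB9 and HOXB13 are not among them, so this median does not describe the members. These letter matches describe the DNA and locate no binding site.

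Captured DNA took up a larger share of the HOXB interval than of the autosomes, and most of it lay between HOXB1 and HOXB9. Of the 200225 bp interval, MEG3 TFR1 regions covered 11.9%, MEG3 TFR2 regions 7.79% and GATA6-AS TFR1 regions 18.5%. Over the 2722 Mb of autosomal DNA that the lists span, the same shares were 1.39% with MEG3 TFR1, 0.982% with MEG3 TFR2 and 1.82% with GATA6-AS TFR1. The HOXB share was thus 8.53 times the autosomal one with MEG3 TFR1, 7.93 times with MEG3 TFR2 and 10.2 times with GATA6-AS TFR1. Chromosome 17 as a whole was covered less than the interval with each oligo, to 2.98% with MEG3 TFR1, 2.17% with MEG3 TFR2 and 5.03% with GATA6-AS TFR1. Per 100 kb there were 26.5 captured regions of MEG3 TFR1 in the interval and 3.29 on the autosomes, 16.0 and 2.70 of MEG3 TFR2, and 30.0 and 3.85 of GATA6-AS TFR1.

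The DNA to either side was covered less than the interval as a whole. In the 200 kb below HOXB1, MEG3 TFR1 regions covered 3.61%, MEG3 TFR2 regions 1.83% and GATA6-AS TFR1 regions 1.75% of the DNA. In the 200 kb above HOXB13 the shares were 3.95% with MEG3 TFR1, 3.08% with MEG3 TFR2 and 5.40% with GATA6-AS TFR1. With GATA6-AS TFR1 the interval was thus 10.5 times as covered as the DNA below it and 3.42 times as covered as the DNA above it.

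Over whole intervals the HOXB share lay between those of the other HOX clusters. The HOXC interval was covered more, to 19.6% with MEG3 TFR1, 12.1% with MEG3 TFR2 and 30.9% with GATA6-AS TFR1, so that HOXB had from 0.598 to 0.645 of the HOXC share. The HOXB interval holds a long stretch between HOXB9 and PRAC2 with few regions. From HOXB1 to HOXB9 alone the covered share was 0.963 of that of HOXC with MEG3 TFR1, 1.05 times it with MEG3 TFR2 and 0.980 of it with GATA6-AS TFR1. That cut was chosen after seeing the data. It takes the sparse stretch out of HOXB and leaves the other clusters whole, so it raises HOXB by its making and does not rank the clusters. HOXB exceeded HOXA, where MEG3 TFR1 covered 9.71%, MEG3 TFR2 3.22% and GATA6-AS TFR1 13.4%. It also exceeded HOXD, where MEG3 TFR1 covered 5.41%, MEG3 TFR2 4.69% and GATA6-AS TFR1 12.4%. Over whole intervals each oligo gave the order HOXC, then HOXB, then the other clusters. In the same lists HOXA stood above HOXD with MEG3 TFR1 and GATA6-AS TFR1 and below it with MEG3 TFR2.

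**Figure D1:**
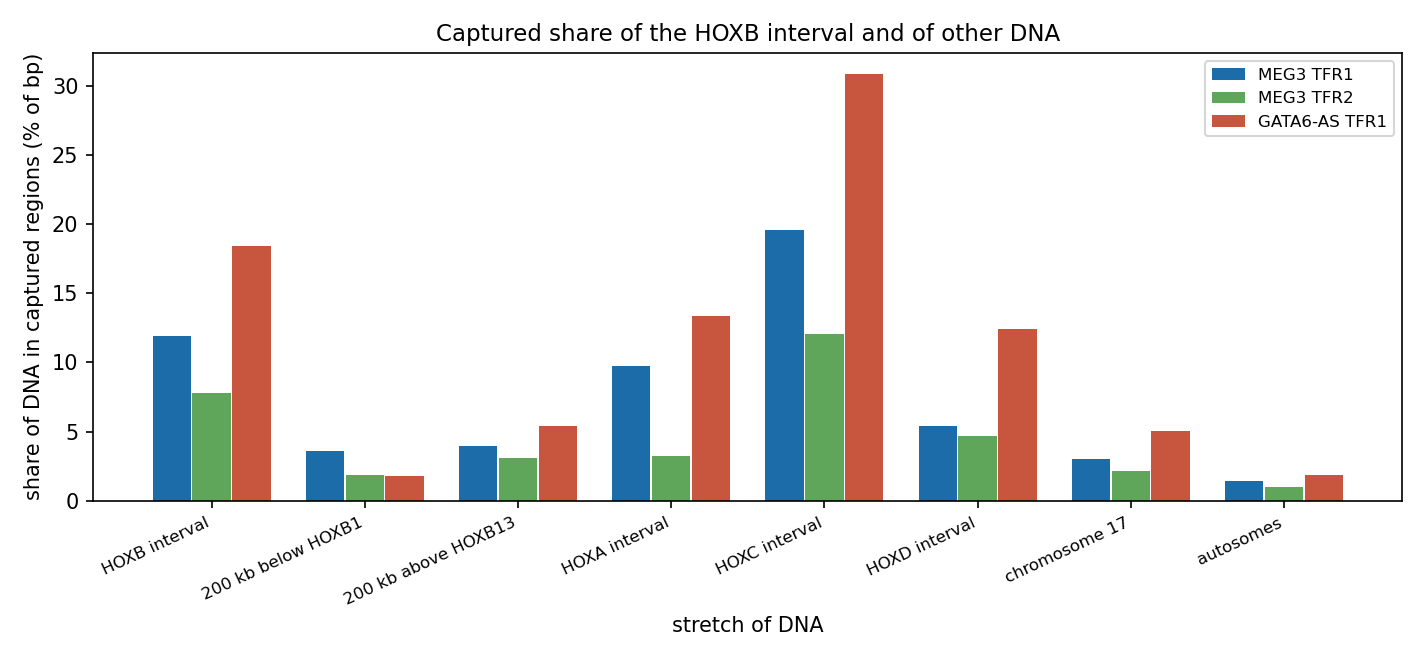
Share of DNA (percent of bp) inside captured regions of each oligo, for the HOXB interval, the 200 kb to either side of it, the other HOX intervals, chromosome 17 and the autosomes; each bar is one list and has no error, since the lists pool the libraries. The HOXB bars reach 11.9%, 7.79% and 18.5%, above the flanks and below HOXC.

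Within the cluster the captured regions sat mainly among the closely packed genes from HOXB1 to HOXB9. This 97.8 kb held 40 MEG3 TFR1 regions covering 18.8% of it, 24 MEG3 TFR2 regions covering 12.7% and 47 GATA6-AS TFR1 regions covering 30.3%. The 92.3 kb between HOXB9 and PRAC2, mostly taken up by the noncoding gene LINC02086, held 12 MEG3 TFR1 regions covering 4.88%, 6 MEG3 TFR2 regions covering 2.76% and 10 GATA6-AS TFR1 regions covering 5.58%. These shares were 1.23 times those of the 200 kb above HOXB13 with MEG3 TFR1, 0.898 of them with MEG3 TFR2 and 1.03 times them with GATA6-AS TFR1. Against the 200 kb below HOXB1 they were 1.35 times as high with MEG3 TFR1, 1.51 times with MEG3 TFR2 and 3.19 times with GATA6-AS TFR1. They also exceeded the autosomal shares of 1.39% with MEG3 TFR1, 0.982% with MEG3 TFR2 and 1.82% with GATA6-AS TFR1. The sparse stretch includes the longest part of the interval with no captured region of any oligo, 22.5 kb at chr17:48682751-48705250. Around HOXB13 the density was high again for GATA6-AS TFR1, with 21.8% of the 10.1 kb from PRAC2 to HOXB13 covered, beside 8.92% for MEG3 TFR1 and 5.95% for MEG3 TFR2.

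**Figure D2:**
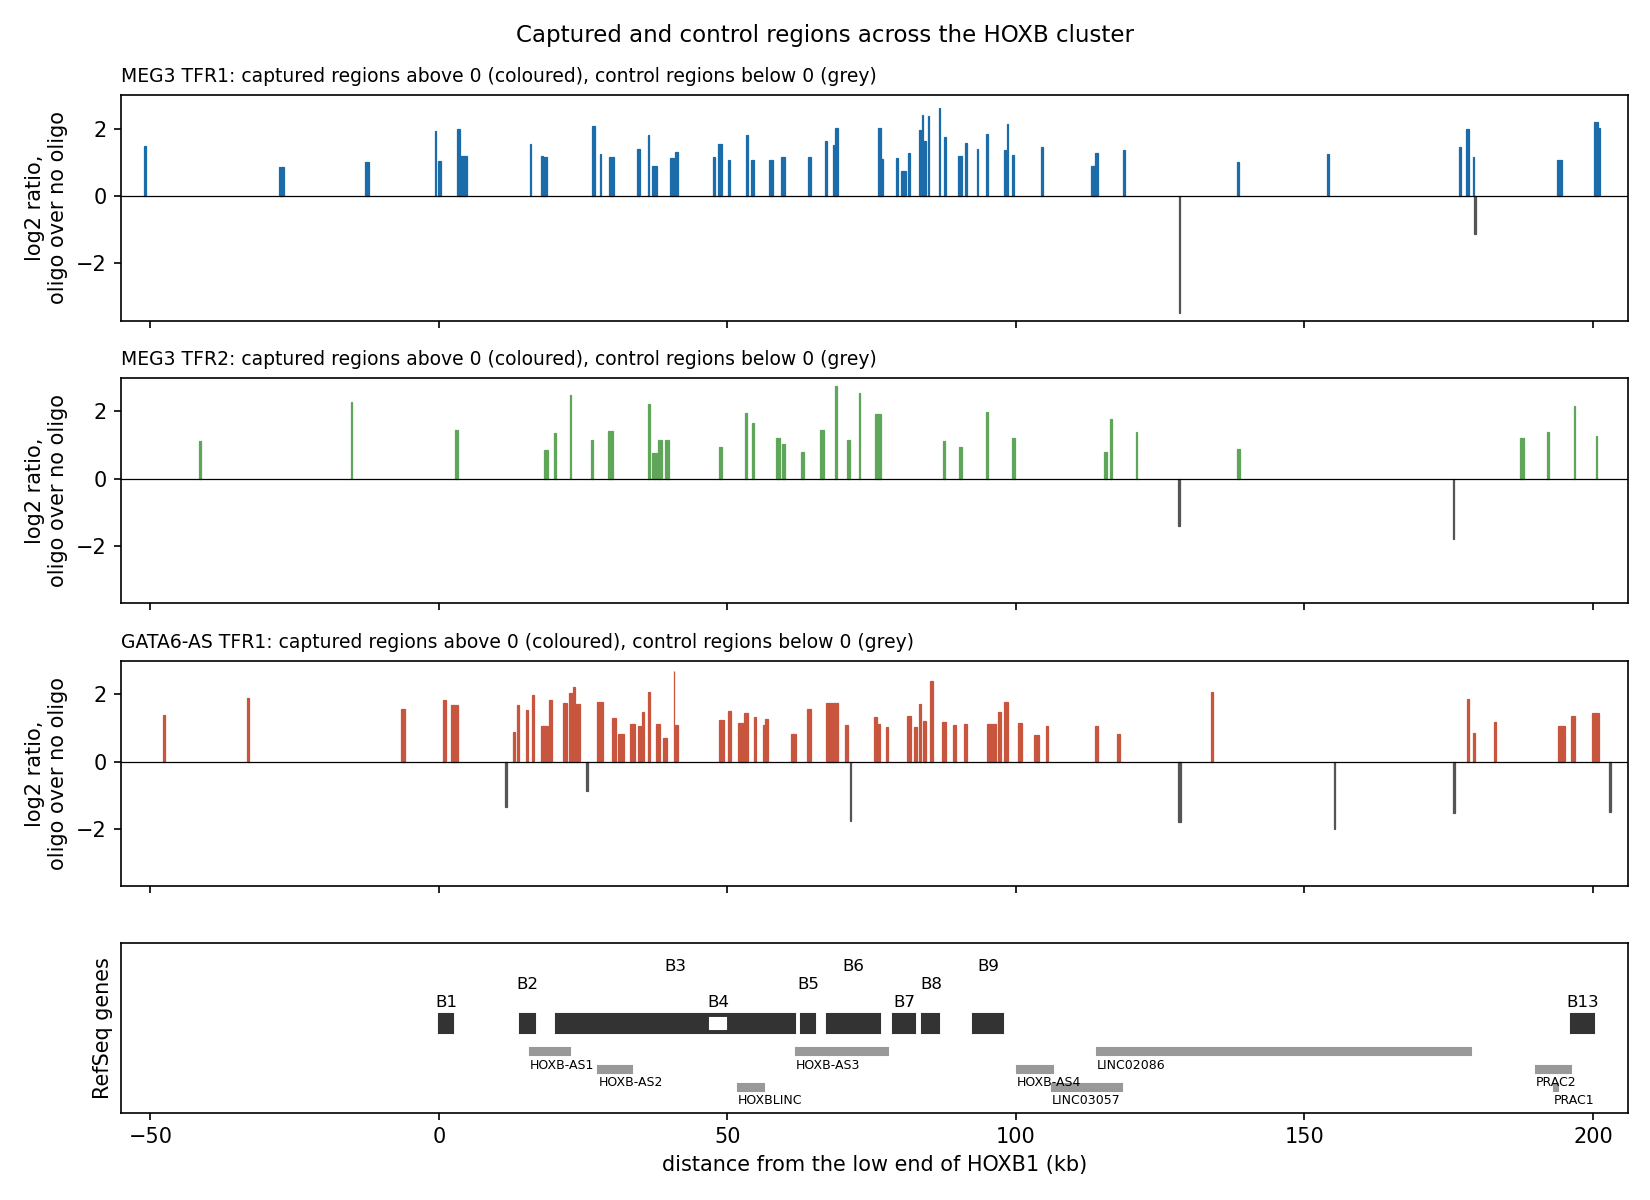
Position of each region (distance in kb from the low end of HOXB1) and its log2 ratio of oligo over no oligo, with captured regions above 0 and control regions below 0, over the RefSeq genes of the cluster (members in black, HOXB4 as a white box inside HOXB3, other genes in grey). Bar width is region width; the regions crowd from HOXB1 to HOXB9 and thin out over LINC02086.

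The members' own DNA was covered more than the rest of the interval. Inside the 10 genes, which make up 37.0% of the interval, MEG3 TFR1 regions covered 17.8%, MEG3 TFR2 regions 12.9% and GATA6-AS TFR1 regions 33.2% of the DNA. In the DNA of other genes the share was 6.47% with MEG3 TFR1, 4.0% with MEG3 TFR2 and 7.43% with GATA6-AS TFR1. Between genes it was 14.0% with MEG3 TFR1, 7.06% with MEG3 TFR2 and 16.5% with GATA6-AS TFR1. DNA shared by a member and another gene was counted for the member, and the other genes include LINC02086, 64.7 kb long and sparsely covered. All members but HOXB13 lie in the dense HOXB1 to HOXB9 stretch. As a whole that stretch was covered to 18.8% with MEG3 TFR1, 12.7% with MEG3 TFR2 and 30.3% with GATA6-AS TFR1, near the members' shares. By midpoint, 29 of 53 MEG3 TFR1 regions in the interval lay in a member, as did 19 of 32 MEG3 TFR2 regions and 37 of 60 GATA6-AS TFR1 regions.

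Their ratios were close to those of the whole lists. The members' captured regions had a median log2 ratio of 1.37 for MEG3 TFR1 (2.58-fold, n = 59), beside 1.41 over that whole list. The medians were 1.28 for MEG3 TFR2 (n = 35), beside 1.44 over the list, and 1.33 for GATA6-AS TFR1 (n = 63), beside 1.34. In the interval the regions were somewhat wider than in the lists as a whole, with a median width of 400 bp against 350 bp for MEG3 TFR1, 450 bp against 350 bp for MEG3 TFR2, and 550 bp against 400 bp for GATA6-AS TFR1. The narrower regions tended to have the higher ratios, with Spearman's rho between width and log2 ratio of -0.47 for MEG3 TFR1 (n = 53), -0.42 for MEG3 TFR2 (n = 32) and -0.24 for GATA6-AS TFR1 (n = 60). Regions of a list share their libraries, so these coefficients are descriptions only.

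Captured regions were common at the ends of the members. A captured region of MEG3 TFR1 lay within 1 kb of an end of 9 of the 10 members, all but HOXB3, where 28.2% of 19974 protein-coding genes had one. With MEG3 TFR2 the count was 7 of 10, all but HOXB2, HOXB7 and HOXB9, against 22.2% of all genes. With GATA6-AS TFR1 it was 10 of 10, against 46.8%. The genes are neighbours and share regions, so the 10 are not independent of one another.

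The control lists had a region within 1 kb of an end of 0 of 10 members with each oligo, where 2.33% of protein-coding genes had one with MEG3 TFR1, 2.22% with MEG3 TFR2 and 5.92% with GATA6-AS TFR1. Within 5 kb of an end the control list of GATA6-AS TFR1 reached 3 of 10 members, HOXB2, HOXB6 and HOXB13, against 26.0% of protein-coding genes, and those of the MEG3 oligos again 0, where 10.5% of genes had one with MEG3 TFR1 and 9.79% with MEG3 TFR2. Captured regions reached 10 of 10 members at 5 kb with each oligo, where 57.2% of genes had one with MEG3 TFR1, 51.7% with MEG3 TFR2 and 66.2% with GATA6-AS TFR1. When only captured regions of log2 ratio 1.5 or more were counted, the members with one at an end numbered 8 for MEG3 TFR1 (13.5% of all genes), 9 for GATA6-AS TFR1 (24.5%) and only 2, HOXB6 and HOXB13, for MEG3 TFR2 (10.6%). HOXB genes are all transcribed toward the low-coordinate end, as the minus strand of the HOXB1 promoter shows for that gene, so the high-coordinate end is the transcription start. Within 1 kb of that end MEG3 TFR1 had a region in 9 members, against 19.4% of 15813 genes with a known strand, MEG3 TFR2 in 6, against 11.8%, and GATA6-AS TFR1 in 10, against 37.6%. At the low-coordinate end MEG3 TFR1 had one in 6 members, against 13.1% of those genes, MEG3 TFR2 in 5, against 13.1%, and GATA6-AS TFR1 in 8, against 22.9%.

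**Figure D3:**
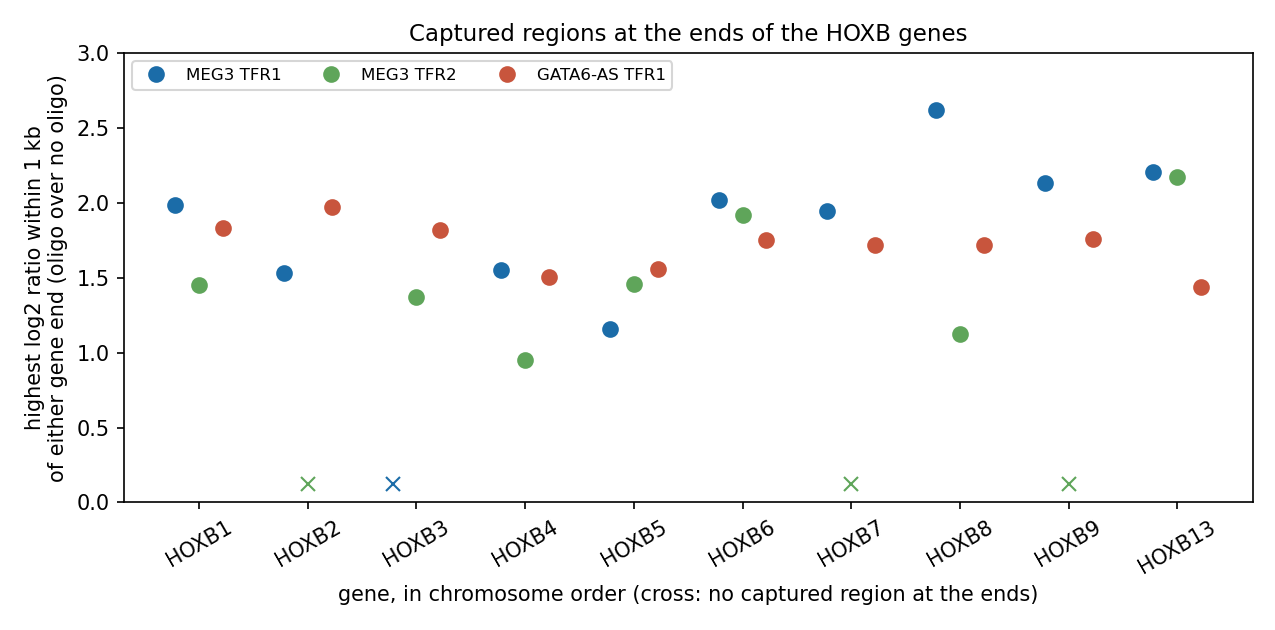
Highest log2 ratio (oligo over no oligo) of a captured region within 1 kb of either end of each member, by oligo, with genes in chromosome order; a cross marks a gene with no such region in that list. The points lie between 0.95 and 2.62, with the crosses at HOXB3 for MEG3 TFR1 and at HOXB2, HOXB7 and HOXB9 for MEG3 TFR2.

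HOXB1, needed for the identity of a hindbrain segment and among the first genes of the cluster to respond to retinoic acid, stands at chr17:48528526-48531011. Around its upper end, chr17:48530551-48532150, the highest log2 ratio was 1.98 with MEG3 TFR1, 1.44 with MEG3 TFR2 and 1.67 with GATA6-AS TFR1. Inside the gene MEG3 TFR1 had 1 region and GATA6-AS TFR1 2, covering 13.1% and 38.7% of it, and MEG3 TFR2 had 0. All 3 oligos thus captured DNA at or just above the upper end, and MEG3 TFR2 captured none within the gene. Only the GATA6-AS TFR1 region overlapped the promoter printed above, while the regions of the MEG3 oligos there began beyond it and covered 0 bp of it. MEG3 TFR2 also had 1.45 at chr17:48527551-48527950, just below the gene, a region that counts at its end but that neither the names nor the interval take in.

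HOXB2, which acts in the same part of the hindbrain, stands at chr17:48542655-48545109. MEG3 TFR1 had a single region there, at chr17:48544251-48544550 with a log2 ratio of 1.53, and this region also holds the start of HOXB-AS1. GATA6-AS TFR1 had regions at both ends, up to a log2 ratio of 1.97 (3.92-fold), and covered 28.5% of the gene. No MEG3 TFR2 region lay in HOXB2 or within 1 kb of its ends.

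HOXB3, active in hindbrain and pharyngeal arches, is by far the longest member at 41.4 kb (chr17:48548870-48590241) in the RefSeq table, since long transcripts reach across HOXB4. It held 15 MEG3 TFR1 regions, 12 MEG3 TFR2 regions and 23 GATA6-AS TFR1 regions, which covered 19.3% of the gene with MEG3 TFR1, 15.2% with MEG3 TFR2 and 34.1% with GATA6-AS TFR1. At chr17:48564801-48565150 the log2 ratios were 1.82 with MEG3 TFR1, 2.22 with MEG3 TFR2 and 2.06 with GATA6-AS TFR1. The highest GATA6-AS TFR1 value of the interval, 2.68 (6.40-fold), also fell in HOXB3, in a region of 150 bp at chr17:48569201-48569350. No MEG3 TFR1 region came within 1 kb of its outer ends, so its regions were all internal for that oligo.

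Toward the low end of HOXB3 several regions had ratios above 2. At chr17:48551151-48551550, shared with HOXB-AS1, MEG3 TFR2 had 2.48 (5.58-fold) and GATA6-AS TFR1 2.04. The next region of GATA6-AS TFR1, chr17:48551851-48552100, had 2.22. At chr17:48554901-48555550 MEG3 TFR1 had 2.09 and MEG3 TFR2 1.15. The stretches of HOXB3 with broader regions had lower values, such as chr17:48565501-48567200 where MEG3 TFR1 had 0.88, MEG3 TFR2 1.14 and GATA6-AS TFR1 1.10.

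HOXB4, known for expanding blood stem cells when overexpressed, lies inside HOXB3 at chr17:48575507-48578350, so each of its regions is also a HOXB3 region. At chr17:48576951-48577950 the log2 ratios were 1.55 with MEG3 TFR1, 0.95 with MEG3 TFR2 and 1.22 with GATA6-AS TFR1. Coverage of HOXB4 was 35.2% with MEG3 TFR1, 22.9% with MEG3 TFR2, its highest among members, and 33.4% with GATA6-AS TFR1. The MEG3 TFR2 value of 0.95 was the lowest top value at the ends of any member.

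HOXB5, which takes part in neural crest and enteric nerve development, stands at chr17:48591257-48593779. Each oligo had 1 region in the gene, covering 19.8% of it with MEG3 TFR1, 19.8% with MEG3 TFR2 and 27.7% with GATA6-AS TFR1. Its highest value at the ends was 1.16 with MEG3 TFR1, 1.46 with MEG3 TFR2 and 1.56 with GATA6-AS TFR1, where the MEG3 TFR2 region, chr17:48594551-48595300, lies between HOXB5 and HOXB6 and counts for both.

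HOXB6, a mid-cluster gene expressed in mesoderm and blood progenitors, stands at chr17:48595751-48604986 and is overlapped by HOXB-AS3. It was the member with the highest MEG3 TFR2 values. At chr17:48595451-48597750 the highest log2 ratio was 2.01 with MEG3 TFR1, 2.76 with MEG3 TFR2 and 1.75 with GATA6-AS TFR1. The MEG3 TFR2 region there, chr17:48597101-48597450, was 6.77-fold higher with the oligo, and a second one inside the gene, chr17:48601301-48601500, 5.87-fold. These were the 2 highest MEG3 TFR2 values of the interval. At the upper end, chr17:48604001-48605100, the values were 2.02 with MEG3 TFR1, 1.92 with MEG3 TFR2 and 1.34 with GATA6-AS TFR1, so that each oligo captured DNA near both ends of HOXB6.

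HOXB7, often overexpressed in tumours, stands at chr17:48607232-48611017. MEG3 TFR1 covered 39.6% of it with 3 regions, its highest coverage of any member, although the ratios inside the gene reached only 1.27. GATA6-AS TFR1 covered 21.6% with 2 regions, up to 1.35. MEG3 TFR2 had no region in the gene or within 1 kb. Between HOXB7 and HOXB8, at chr17:48611751-48612150, MEG3 TFR1 had 1.95 and GATA6-AS TFR1 1.72, values that count at the ends of both genes.

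HOXB8, which holds blood progenitors immature when overexpressed, carried the highest MEG3 TFR1 values of the interval. They were 2.62 (6.13-fold) at chr17:48615151-48615350, across the upper end of the gene, 2.39 (5.25-fold) at chr17:48612201-48612350, at its lower end, and 2.38 (5.22-fold) at chr17:48613351-48613550 inside it. GATA6-AS TFR1 reached 2.39 (5.24-fold) in the adjoining region chr17:48613601-48614150. MEG3 TFR2 had 0 regions in the gene, against 4 for MEG3 TFR1 and 2 for GATA6-AS TFR1. Just above HOXB8, at chr17:48615801-48616450, the values were 1.76 with MEG3 TFR1, 1.12 with MEG3 TFR2 and 1.19 with GATA6-AS TFR1.

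HOXB9, which helps to pattern the thoracic skeleton, stands at chr17:48621156-48626358. Inside it, at chr17:48623351-48625100, the log2 ratios were 1.85 with MEG3 TFR1, 1.98 with MEG3 TFR2 and 1.11 with GATA6-AS TFR1. The ratio was thus lowest with GATA6-AS TFR1, whose 2 regions covered the most of the gene at 37.5%, beside 11.5% for MEG3 TFR1 and 7.69% for MEG3 TFR2. At the upper end MEG3 TFR1 reached 2.13 (4.38-fold) and GATA6-AS TFR1 1.76, and MEG3 TFR2 had no region within 1 kb of either end.

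HOXB13, a factor of the prostate and hindgut lineage, stands apart from the other members at chr17:48724763-48728750. MEG3 TFR1 had 0 regions in the gene but 2 just above its upper end, the nearer 51 bp away at chr17:48728801-48729450 with 2.21 (4.62-fold). MEG3 TFR2 had 2.17 (4.50-fold) near the lower end, at chr17:48725201-48725500, and 1.28 above the upper one. GATA6-AS TFR1 covered 27.3% of the gene, with 1.36 at the lower end and 1.44 across the upper end. The upper end thus had a captured region with each oligo and the lower one, which adjoins PRAC2, with MEG3 TFR2 and GATA6-AS TFR1.

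**Figure D4:**
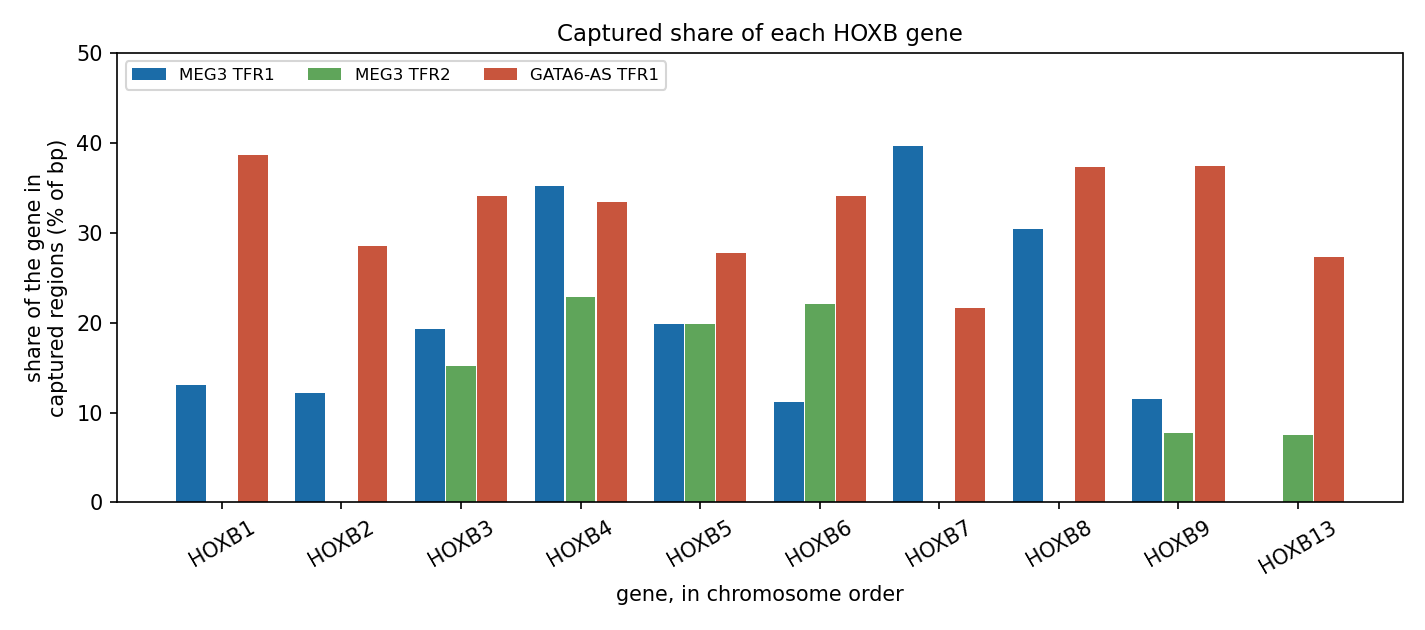
Share of each member's DNA (percent of bp from gene start to gene end) inside captured regions of each oligo, genes in chromosome order; bars have no error, since the lists pool the libraries. GATA6-AS TFR1 covers 21.6% to 38.7% of every member, while MEG3 TFR2 has no bar at HOXB1, HOXB2, HOXB7 and HOXB8, and MEG3 TFR1 none at HOXB13.

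The cluster also holds noncoding genes. The antisense RNAs HOXB-AS1, HOXB-AS2 and HOXB-AS3 overlap member genes and share their regions. HOXBLINC, a long noncoding RNA known to help switch on the HOXB1 end of the cluster in mesoderm, lies inside HOXB3 at chr17:48580317-48584924. Its DNA was covered to 18.4% by MEG3 TFR1, 17.4% by MEG3 TFR2 and 49.3% by GATA6-AS TFR1. At chr17:48581401-48582150 the log2 ratios were 1.82 with MEG3 TFR1, 1.95 with MEG3 TFR2 and 1.43 with GATA6-AS TFR1. At chr17:48582651-48583450 they were 1.08 with MEG3 TFR1, 1.67 with MEG3 TFR2 and 1.33 with GATA6-AS TFR1, so each oligo captured HOXBLINC at 2 places or more. In this second stretch 0 bp lay in regions of all 3 oligos, since the MEG3 TFR1 region ended where that of GATA6-AS TFR1 began. HOXB-AS4, above HOXB9, was covered to 5.61% by MEG3 TFR1 and 31.3% by GATA6-AS TFR1, with 0 regions of MEG3 TFR2 inside it.

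LINC02086 is the longest gene of the interval at 64.7 kb and one of the least covered, with 3.20% inside regions of MEG3 TFR1, 2.32% of MEG3 TFR2 and 2.20% of GATA6-AS TFR1. Its highest values were 2.00 with MEG3 TFR1 near its upper end and 2.06 with GATA6-AS TFR1 at chr17:48662301-48662750. LINC03057, which overlaps its lower end and shares regions with it, was covered to 9.54% by MEG3 TFR1, 6.64% by MEG3 TFR2 and 8.71% by GATA6-AS TFR1. PRAC1 and PRAC2 are small genes expressed in prostate and colon. In PRAC2 and by the upper end of PRAC1, at chr17:48722301-48723650, MEG3 TFR1 had a log2 ratio of 1.07 and GATA6-AS TFR1 likewise 1.07. The pseudogenes RPL9P28 and COX6B1P2 held 0 captured regions.

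Of the microRNAs of the cluster, miR-196a is known to cut the HOXB8 messenger RNA, and miR-10a lies between HOXB4 and HOXB5. Their mature forms from RefSeq (GRCh38.p14, minus strand) are given with the seed, bases 2 to 8, in capitals, and the seeds differ.
hsa-miR-196a-5p (chr17:48632532-48632553): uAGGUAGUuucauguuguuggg
hsa-miR-10a-5p (chr17:48579904-48579926): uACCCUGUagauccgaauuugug
The MIR196A1 hairpin lay wholly inside a GATA6-AS TFR1 region of low ratio, 0.79 (1.73-fold), at chr17:48631701-48632600. The nearest MEG3 TFR1 region was 342 bp away and the nearest MEG3 TFR2 region 4140 bp. The MIR10A hairpin was in no captured region, with the nearest at 838 bp for MEG3 TFR1, 1604 bp for MEG3 TFR2 and 454 bp for GATA6-AS TFR1. MIR3185, beside HOXB13, likewise lay outside, 1208 bp from a MEG3 TFR1 region, 726 bp from one of MEG3 TFR2 and 276 bp from one of GATA6-AS TFR1.

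Control regions, where the DNA was less abundant with the oligo, were fewer in the interval than captured ones. With each oligo they nonetheless covered a larger share of the interval than of the autosomes. MEG3 TFR1 had 2 control regions, covering 0.300% of the interval and 0.154% of the autosomes, MEG3 TFR2 2, covering 0.275% and 0.132%, and GATA6-AS TFR1 6, covering 0.974% and 0.402%. Those of the MEG3 oligos lay between HOXB9 and PRAC2, while 3 of GATA6-AS TFR1 lay between HOXB1 and HOXB9. The strongest, inside LINC02086 and 30.3 kb above HOXB9 at chr17:48656651-48657100, had -3.47 with MEG3 TFR1, -1.40 with MEG3 TFR2 and -1.81 with GATA6-AS TFR1 on the log2 scale. The MEG3 TFR1 value is 0.0902-fold. Since the no oligo libraries are common to these comparisons, the 3 values are not separate observations. Members were touched only by GATA6-AS TFR1, at chr17:48553951-48554450 in HOXB3 (-0.87) and chr17:48599701-48599900 in HOXB6 (-1.76). The other values of that oligo were -1.36 below HOXB2, -2.00 and -1.51 in LINC02086, and -1.50 above HOXB13, outside the interval. The remaining region of MEG3 TFR2, in LINC02086, had -1.79, and that of MEG3 TFR1, above LINC02086, had -1.12.

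The gene names that the authors gave to HOXB regions did not always match the RefSeq position of the gene. The gene models behind those names are not known. Other gene bounds could place the names differently, which was not tested. Of 93 member names printed with no sign, 40 belonged to regions inside the named gene and 50 to regions inside it or within 1 kb. Of 30 names with a sign, such as HOXB4(+), 0 lay inside the named gene or within 1 kb of it. Their median distance was 43.8 kb, and 12 of them lay in another member. Each captured list named HOXB1 to HOXB9 with a sign once each, in gene order on 9 regions. The lowest of these regions starts at chr17:48477451, below HOXB1, and the highest ends at chr17:48577650, in HOXB4. Across all lists 96.5% of signed names stood over 1 kb from the gene named. The gene counts above therefore use positions. Of the 13 member regions outside the interval, taken in by name, 9 lay below HOXB1, up to 50.8 kb away, and 4 above HOXB13.

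Other HOX genes and their partners were counted by the same rule, a captured region within 1 kb of a gene end, which 28.2% of protein-coding genes had with MEG3 TFR1, 22.2% with MEG3 TFR2 and 46.8% with GATA6-AS TFR1. Of 29 genes in the HOXA, HOXC and HOXD clusters, 19 had a MEG3 TFR1 region, 12 a MEG3 TFR2 region and 26 a GATA6-AS TFR1 region. In HOXC, the cluster with the highest coverage, 9 of 9 genes had one with MEG3 TFR1, 6 with MEG3 TFR2 and 9 with GATA6-AS TFR1, and HOXC11 reached 2.80 with MEG3 TFR2. In HOXA it was 6 of 11 with MEG3 TFR1, 9 with GATA6-AS TFR1 and only 1 with MEG3 TFR2, a share below the 22.2% of all genes. In HOXD it was 4 of 9 with MEG3 TFR1, 5 with MEG3 TFR2 and 8 with GATA6-AS TFR1. The share of HOXB members with a region was thus near that of HOXC and above that of HOXA with each oligo at this distance, without a test of the difference.

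PBX, MEIS and PKNOX proteins bind DNA together with HOX proteins. Of 9 such genes, 6 had a MEG3 TFR1 region at an end, 5 a MEG3 TFR2 region and 7 a GATA6-AS TFR1 region, to be read against the same 28.2%, 22.2% and 46.8% of all genes. MEIS3 reached 2.95 (7.71-fold) with MEG3 TFR1, and MEIS2 had 2.44 with MEG3 TFR1, 1.30 with MEG3 TFR2 and 2.41 with GATA6-AS TFR1. Among 13 genes of retinoic acid signalling and the CDX factors, which act upstream of HOX genes, 5 had one with MEG3 TFR1, 4 with MEG3 TFR2 and 6 with GATA6-AS TFR1, counts close to what those background shares give for 13 genes. The retinoic acid receptor genes RARA and RARG and the partner gene RXRB had a captured region with every oligo, up to 2.12 at RARG with GATA6-AS TFR1. In the control lists, GATA6-AS TFR1 had regions at HOXA3 and HOXD4, MEG3 TFR1 at RXRA and MEG3 TFR2 at RXRB.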

How the data were processed

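Genomic DNA pulled down by 3 RNA oligos, or handled without one, was sequenced with 2 libraries per group. Per the submitters' processing notes, FastQC, BWA 0.7.15-r1140 and the hg38 build were used; the region caller, its threshold and the library scaling were not given in the sources used here. Deposited by the authors were log2 values, 1 per region: raised as powers of 2, between 98.2% and 99.96% of the values in a list were quotients of integers with a divisor no larger than 400. What those numbers count is unknown. Depth is unknown and no value has an error, so nothing was tested.

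From the lists, counts, medians and covered bp were computed with Python 3.11.15, numpy 2.4.6, pandas 2.3.3 and scipy 1.17.1 (figures with matplotlib 3.10.9), and the scripts were tested on simulated data. Overlap meant at least 1 bp, and the autosomal span left out stretches over 1 Mb empty in every list. Gene positions, promoters and microRNAs came from RefSeq tables of GRCh38.p14, which give a strand for HOXB1 alone among the members. All 10 members, the other genes of the interval, the 3 highest regions of each oligo, the control regions and regions listed by several oligos were to be named, the last of these in part. The members and lists were chosen with earlier results of these data known. The planned sharing of regions between oligos is not given, because the comparisons share the no oligo libraries. Alternatives were other membership rules, stricter ratios, joined regions, other interval and gene ends, and transcription starts.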

Additional observations from a re-analysis of the deposited data

Results flagged for a closer look

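At 2 places in the HOXB interval a region captured with one oligo overlapped a control region of another. In HOXB6, MEG3 TFR2 had a captured region at chr17:48599301-48599850 with a log2 ratio of 1.15, against a control region of GATA6-AS TFR1 at chr17:48599701-48599900 with -1.76. Above LINC02086, GATA6-AS TFR1 had a captured region at chr17:48707701-48708150 with 0.84, against a control region of MEG3 TFR1 at chr17:48708001-48708300 with -1.12. Each pair overlapped by 150 bp. The libraries of each group have no value of their own and the comparisons share the no oligo libraries, so the difference between the oligos was not tested.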

How the results depend on the processing

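Of the counts, shares and medians recomputed under the alternatives, 37 stayed near the value reported and 23 did not. Near meant within 1.5 times for a count. For a share or median it meant inside a 95% interval that takes 50 bp bins or regions as independent, which they are not. Stricter ratios can only lower counts and shares, and wider gene ends can only keep or raise counts, so the tally is a description. Keeping log2 ratios of 1.5 or more in size left 23 captured regions with MEG3 TFR1, 11 with MEG3 TFR2 and 23 with GATA6-AS TFR1, and 1 control region each with MEG3 TFR1 and MEG3 TFR2. The captured regions left were 39.0% with MEG3 TFR1 (whole list 42.4%), 31.4% with MEG3 TFR2 (44.5%) and 36.5% with GATA6-AS TFR1 (35.3%). The captured share of the interval was then 3.55% with MEG3 TFR1 (autosomes 0.487%), 2.02% with MEG3 TFR2 (0.382%) and 6.19% with GATA6-AS TFR1 (0.555%), and MEG3 TFR2 reached the ends of 2 members. Keeping the 50% of each list with the largest ratio left 26 captured and 1 control region with MEG3 TFR1, 12 and 1 with MEG3 TFR2, and 31 and 3 with GATA6-AS TFR1. By the authors' names alone MEG3 TFR2 had 18 captured regions, and the control regions numbered 0 with MEG3 TFR1, 0 with MEG3 TFR2 and 4 with GATA6-AS TFR1. For HOXB, joining regions within 200 bp and an interval longer by 5 kb to each side moved no count or share by over 1.5 times. With 5 kb ends, captured regions reached 10 of 10 members with each oligo. Of all protein-coding genes, 57.2% had one with MEG3 TFR1, 51.7% with MEG3 TFR2 and 66.2% with GATA6-AS TFR1. With MEG3 TFR1 the count was 10 of 11 HOXA genes, and with each MEG3 oligo it was 8 of 9 HOXD genes and 9 of 9 HOXC genes. With MEG3 TFR2 it was 7 of 11 HOXA genes and 8 of 13 retinoic acid and CDX genes, not far from the share of all genes. Chosen after seeing the data were 5 kb ends for the control lists, which gave 3 members with GATA6-AS TFR1, and HOXB1 to HOXB9 alone, covered to 18.8% with MEG3 TFR1, 12.7% with MEG3 TFR2 and 30.3% with GATA6-AS TFR1. No paired analysis was possible because the lists hold no value per library, and for the same reason no library could be left out. At the high-coordinate end alone, taken as the transcription start although the tables give the strand of 1 member only, 9 members had a region with MEG3 TFR1, 6 with MEG3 TFR2 and 10 with GATA6-AS TFR1.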

Other observations

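A captured and a control region of the same oligo met end to end above LINC02086. MEG3 TFR1 had a captured region at chr17:48707701-48708000 with a log2 ratio of 1.15 (2.22-fold), against its control region at chr17:48708001-48708300 with -1.12 (0.459-fold), with a gap of 0 bp between them. Other control regions of MEG3 TFR1 and MEG3 TFR2 in the interval stood several kb from a captured region of the same oligo, 9250 bp for the -3.47 region of MEG3 TFR1.

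When only log2 ratios of 1.5 or more were kept, the HOXB share of captured DNA was 7.28 times the autosomal one with MEG3 TFR1, 5.30 times with MEG3 TFR2 and 11.2 times with GATA6-AS TFR1. Over all captured regions it was 8.53 times with MEG3 TFR1, 7.93 times with MEG3 TFR2 and 10.2 times with GATA6-AS TFR1.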
